A study of Mus musculus with 56 samples.

Results

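The protamines and transition proteins studied here were 7 genes for chromatin proteins of the spermatid, Prm1, Prm2, Prm3, Tnp1, Tnp2, Hils1 and H1fnt, listed by name for what they do in sperm formation. They were 7 of the 53379 genes counted, and all 7 had enough counts to be tested in every region. The transcripts were followed from the testis, where spermatids form, through the 6 duct regions that sperm pass on their way out.

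The study used C57BL/6 mice of 3 months and of 21 months and took the testis together with 6 duct regions, namely the efferent ductules and vas deferens at either end and, between them, 4 parts of the epididymis: its initial segment, caput (head), corpus (body) and cauda (tail). Age and region were the only factors that differed in the labels. The methods name animal centres in Guangzhou and Xiamen as sources of the mice and do not say which ages came from which. Each of the 7 regions had 4 libraries per age, 56 in all, and the methods state that 4 mice of each age gave all their regions. The regions were cut out as whole tissue, so each duct library holds epithelium, muscle and whatever lay in the lumen.

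In the maturing spermatid most histones are taken off the DNA, transition proteins take their place for a while, and protamines then pack the DNA into the compact head of the sperm. The genes are transcribed in round spermatids and their mRNAs are stored in silent complexes until elongation, when they are translated. Sperm that leave the testis no longer transcribe their genes, and part of the spermatid RNA leaves with them.

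Prm1 (ENSMUSG00000022501, chr16:10796326-10805839), Prm2 (ENSMUSG00000038015, chr16:10791380-10796134), Prm3 (ENSMUSG00000050058, chr16:10790505-10790914) and Tnp2 (ENSMUSG00000043050, chr16:10787936-10788660) lie on the minus strand of GRCm38 in a cluster of 17904 bp. Tnp1 (ENSMUSG00000026182) lies at chr1:73015074-73015909 on the minus strand, Hils1 (ENSMUSG00000038994) at chr11:94967593-94968456 on the plus strand, and H1fnt (ENSMUSG00000048077) at chr15:98255986-98257293 on the minus strand. Exons of Tnp1 and the antisense gene 1700027A15Rik share 40 bp, Hils1 lies opposite Sgca with no shared exon, and the strand setting of the counting is not stated, so reads of such pairs may not have been kept apart. The coding sequences of the 5 genes at the centre of the comparison are shown because they differ in what they encode, with every arginine codon in capitals. They are those of the GENCODE M21 transcripts on GRCm38, read 5′ to 3′ from the start codon, and of Prm2, Prm3 and Tnp2 the first 300 bases are given.
Prm1: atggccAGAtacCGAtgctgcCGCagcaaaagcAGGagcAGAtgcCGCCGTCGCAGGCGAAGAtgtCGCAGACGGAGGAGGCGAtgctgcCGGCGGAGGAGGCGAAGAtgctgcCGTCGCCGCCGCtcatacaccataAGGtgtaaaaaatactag
Prm2: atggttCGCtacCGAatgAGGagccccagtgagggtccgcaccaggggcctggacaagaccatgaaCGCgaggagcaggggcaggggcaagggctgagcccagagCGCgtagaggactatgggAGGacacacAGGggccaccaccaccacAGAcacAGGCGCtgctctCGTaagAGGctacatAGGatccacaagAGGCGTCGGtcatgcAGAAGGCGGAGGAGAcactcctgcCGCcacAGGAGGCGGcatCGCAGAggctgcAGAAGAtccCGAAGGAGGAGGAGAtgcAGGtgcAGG
Prm3: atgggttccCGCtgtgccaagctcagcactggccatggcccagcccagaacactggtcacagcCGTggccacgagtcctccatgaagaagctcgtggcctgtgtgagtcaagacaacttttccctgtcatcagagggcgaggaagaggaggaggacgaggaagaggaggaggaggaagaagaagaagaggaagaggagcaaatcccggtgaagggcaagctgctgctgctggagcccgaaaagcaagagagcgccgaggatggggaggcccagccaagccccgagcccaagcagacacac
Tnp1: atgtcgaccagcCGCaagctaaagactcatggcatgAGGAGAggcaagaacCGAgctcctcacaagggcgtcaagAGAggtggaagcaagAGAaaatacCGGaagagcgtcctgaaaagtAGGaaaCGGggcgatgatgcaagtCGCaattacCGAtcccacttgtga
Tnp2: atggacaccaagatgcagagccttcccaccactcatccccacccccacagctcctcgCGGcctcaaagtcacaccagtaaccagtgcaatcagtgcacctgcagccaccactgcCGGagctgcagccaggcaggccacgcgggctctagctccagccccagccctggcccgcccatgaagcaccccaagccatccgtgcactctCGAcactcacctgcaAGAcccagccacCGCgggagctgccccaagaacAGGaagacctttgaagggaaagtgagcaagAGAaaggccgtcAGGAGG

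Arginine took 28 of the 51 codons of Prm1 (54.9%), a protamine that binds DNA through its arginine runs, and 38 of the 107 codons of Prm2 (35.5%), the other protamine, which is made as a longer precursor and trimmed. The transition proteins carried fewer, with 11 of 55 codons in Tnp1 (20%) and 16 of 117 in Tnp2 (13.7%), and both were also rich in lysine (18.2 and 9.40%). Prm3 stood apart, with 2 arginine codons among 101 and 27 glutamate codons (26.7%), an acidic product in spite of its name. Hils1 and H1fnt, linker histones of the spermatid, had 7.06 and 16.3% arginine codons over 170 and 398 codons.

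The 250 bases before the RefSeq start of 4 of the genes (GRCm38.p6) are shown because these genes are expressed together in the spermatid. Capitals mark the letters TGANNTCA, a loose form of the cAMP response element TGACGTCA that CREM, the activator of many spermatid genes, is known to bind, and TATAA or its complement TTATA. Prm1 spans chr16:10796824-10797073, Prm2 chr16:10792106-10792355, Tnp1 chr1:73015900-73016149 and Tnp2 chr16:10788656-10788905, all on the minus strand.
Prm1: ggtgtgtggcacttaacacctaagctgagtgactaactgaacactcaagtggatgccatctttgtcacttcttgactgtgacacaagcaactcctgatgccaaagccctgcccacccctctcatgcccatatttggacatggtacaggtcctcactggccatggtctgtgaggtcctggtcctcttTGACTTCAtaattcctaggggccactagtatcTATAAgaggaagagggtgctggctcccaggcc
Prm2: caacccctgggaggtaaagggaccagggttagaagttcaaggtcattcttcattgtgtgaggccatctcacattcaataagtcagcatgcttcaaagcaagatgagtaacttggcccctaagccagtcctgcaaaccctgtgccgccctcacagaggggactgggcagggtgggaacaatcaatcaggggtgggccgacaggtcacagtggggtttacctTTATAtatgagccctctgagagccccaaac
Tnp1: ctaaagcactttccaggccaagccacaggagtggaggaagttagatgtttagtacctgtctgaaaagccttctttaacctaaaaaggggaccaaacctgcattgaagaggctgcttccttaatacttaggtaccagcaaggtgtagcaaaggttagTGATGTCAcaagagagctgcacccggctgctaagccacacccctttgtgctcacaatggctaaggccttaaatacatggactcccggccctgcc
Tnp2: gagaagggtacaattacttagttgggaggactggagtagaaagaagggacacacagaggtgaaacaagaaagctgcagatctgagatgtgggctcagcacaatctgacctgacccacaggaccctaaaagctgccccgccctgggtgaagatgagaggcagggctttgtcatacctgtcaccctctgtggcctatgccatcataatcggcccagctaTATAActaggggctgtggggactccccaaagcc

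On either strand, TGACGTCA was in the 250 bases of none of the 7 genes and of 1.55% of 32851 RefSeq promoters. The looser TGANNTCA was found for Prm1 (TGACTTCA, 64 bases before the start), Prm3 (TGAGGTCA, 60 bases before) and Tnp1 (TGATGTCA, 94 bases before), against 11.9% of all promoters. TATAA was found for Prm1 (32 bases before the start), Prm2 (30 bases) and Tnp2 (33 bases), against 22.8% of all promoters. A match is a run of letters and was not tested as a binding site.

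The libraries held 11125279 to 20561967 counts (median 16384049), and counting error alone limits the duct values that rest on a few counts. Levels are given as CPM, counts scaled to a common library size with TMM factors over all 56 libraries. Some libraries stood apart before any comparison. The third efferent ductule library of the 3-month-old mice held 400 CPM of 20 genes of elongating spermatids and sperm against 92.5 to 108 in the other 3, 45.3 CPM of 12 round spermatid genes against 9.49 to 10.9, and 54.7 CPM of 18 spermatocyte genes against 13.5 to 17.9. In the efferent ductules at 21 months the first and the fourth library had 136 and 151 CPM of 10 Sertoli cell genes against 286 and 320, and Lcn8, a gene of the initial segment, reached 401 CPM there. The mean of these Sertoli cell sums was 53.8% of that in the testis, while the median over the genes of the list was 2.37%. In the second 3-month caput library 49.7% of counts fell on Gm42418, against 36% in the next highest library. In the cauda the third 3-month library had 1228 CPM of 10 duct marker genes against 2199 to 2301 and 622 CPM of the elongating spermatid and sperm genes against 968 to 1205. In the vas deferens at 3 months the first and the fourth library had 21.7 and 23.9 CPM of these genes against 183 and 105. At 21 months the third library there had 10.9 CPM of the round spermatid genes against 3.80 to 5.55, and the fourth had 10714 CPM of the duct markers against 16721 to 17309. The 10 duct marker genes summed to 4.91 to 6.88 CPM in the testis and 1228 to 22880 CPM in the ducts.

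In the testis the 7 genes were among the abundant transcripts, and together took 0.662 to 0.775% of all counts in a library. Prm1 stood at 2405, 2580, 2586 and 2289.8 CPM in the 4 libraries at 3 months and at 2612, 2674, 2915 and 2243 CPM at 21 months. Prm2 stood at 3054, 2988, 2769 and 2325 CPM at 3 months and at 3237, 3142, 3026 and 2788 CPM at 21 months. The libraries of a group lay close together and the ages overlapped for both protamines. Transition protein mRNA was lower per library, with Tnp1 at 780, 639, 505 and 553 CPM and Tnp2 at 1223, 936, 764 and 814 CPM at 3 months, and Tnp1 at 674, 613, 598 and 500.1 CPM and Tnp2 at 1099, 927, 989 and 875 CPM at 21 months. Per kilobase of exon, the 3-month means were 4317 ± 252 for Prm1 (SD, n = 4), 3114 ± 368 for Prm2, 1686 ± 371 for Tnp2, 1417 ± 276 for Tnp1, 305 ± 12.4 for Hils1, 238 ± 29.6 for H1fnt and 151 ± 19.995 for Prm3, in CPM per kb. On that scale Prm1 stood above Prm2, the reverse of their order in CPM.

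Age left the testis levels of 6 of the 7 genes without a call. The log2 difference of 21 from 3 months was 0.08 ± 0.06 for Prm1 (SE), 0.13 ± 0.06 for Prm2, -0.13 ± 0.08 for Prm3, -0.06 ± 0.09 for Tnp1, 0.06 ± 0.10 for Tnp2 and -0.05 ± 0.07 for H1fnt, with adjusted p between 0.495 and 0.900 (95% interval from -0.04 to 0.20 for Prm1) in edgeR's quasi-likelihood test over all genes. Hils1 fell by 0.24 ± 0.06 on the log2 scale (adjusted p = 0.0488), where 0.563% of the 30031 genes tested were called and 0.21% fell. Its libraries ran from 249 to 275 CPM at 3 months and from 206 to 236 CPM at 21 months. They did not overlap, as was so for 6.30% of all genes tested (3.17% lower at 21 months). That call ended when any of 6 of the 8 libraries was left out, the first 3 of either age (adjusted p up to 0.250), and also with DESeq2 size factors (0.0555) or with all 56 libraries in 1 fit (1). Of the lists examined beside them, 2 of 20 genes of elongating spermatids and sperm rose in the testis (Smcp, a protein of the sperm midpiece, by 0.44, and Spata3 by 0.30) and Ldhc, the lactate dehydrogenase of germ cells, fell by 0.20 on the log2 scale. By an unadjusted p under 0.05 with 1.5-fold in edgeR, none of the 7 was lower in the testis (1.3% of all genes). The study used 1.5-fold and a p under 0.05 with DESeq2 and does not say whether that p was adjusted. None of the 15 genes of spermatid chromatin or the 15 of spermatid transcription and mRNA storage was called there by this test, nor any of the 12 round spermatid, 18 spermatocyte, 11 spermatogonium and 10 Sertoli cell genes tested. Among 8 Leydig cell genes, Star, which brings cholesterol into the mitochondrion, rose by 1.02, Agt by 0.96 and Hsd3b6 by 0.70, and Cyp11a1 fell by 0.60 on the log2 scale.

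**Figure D1:**
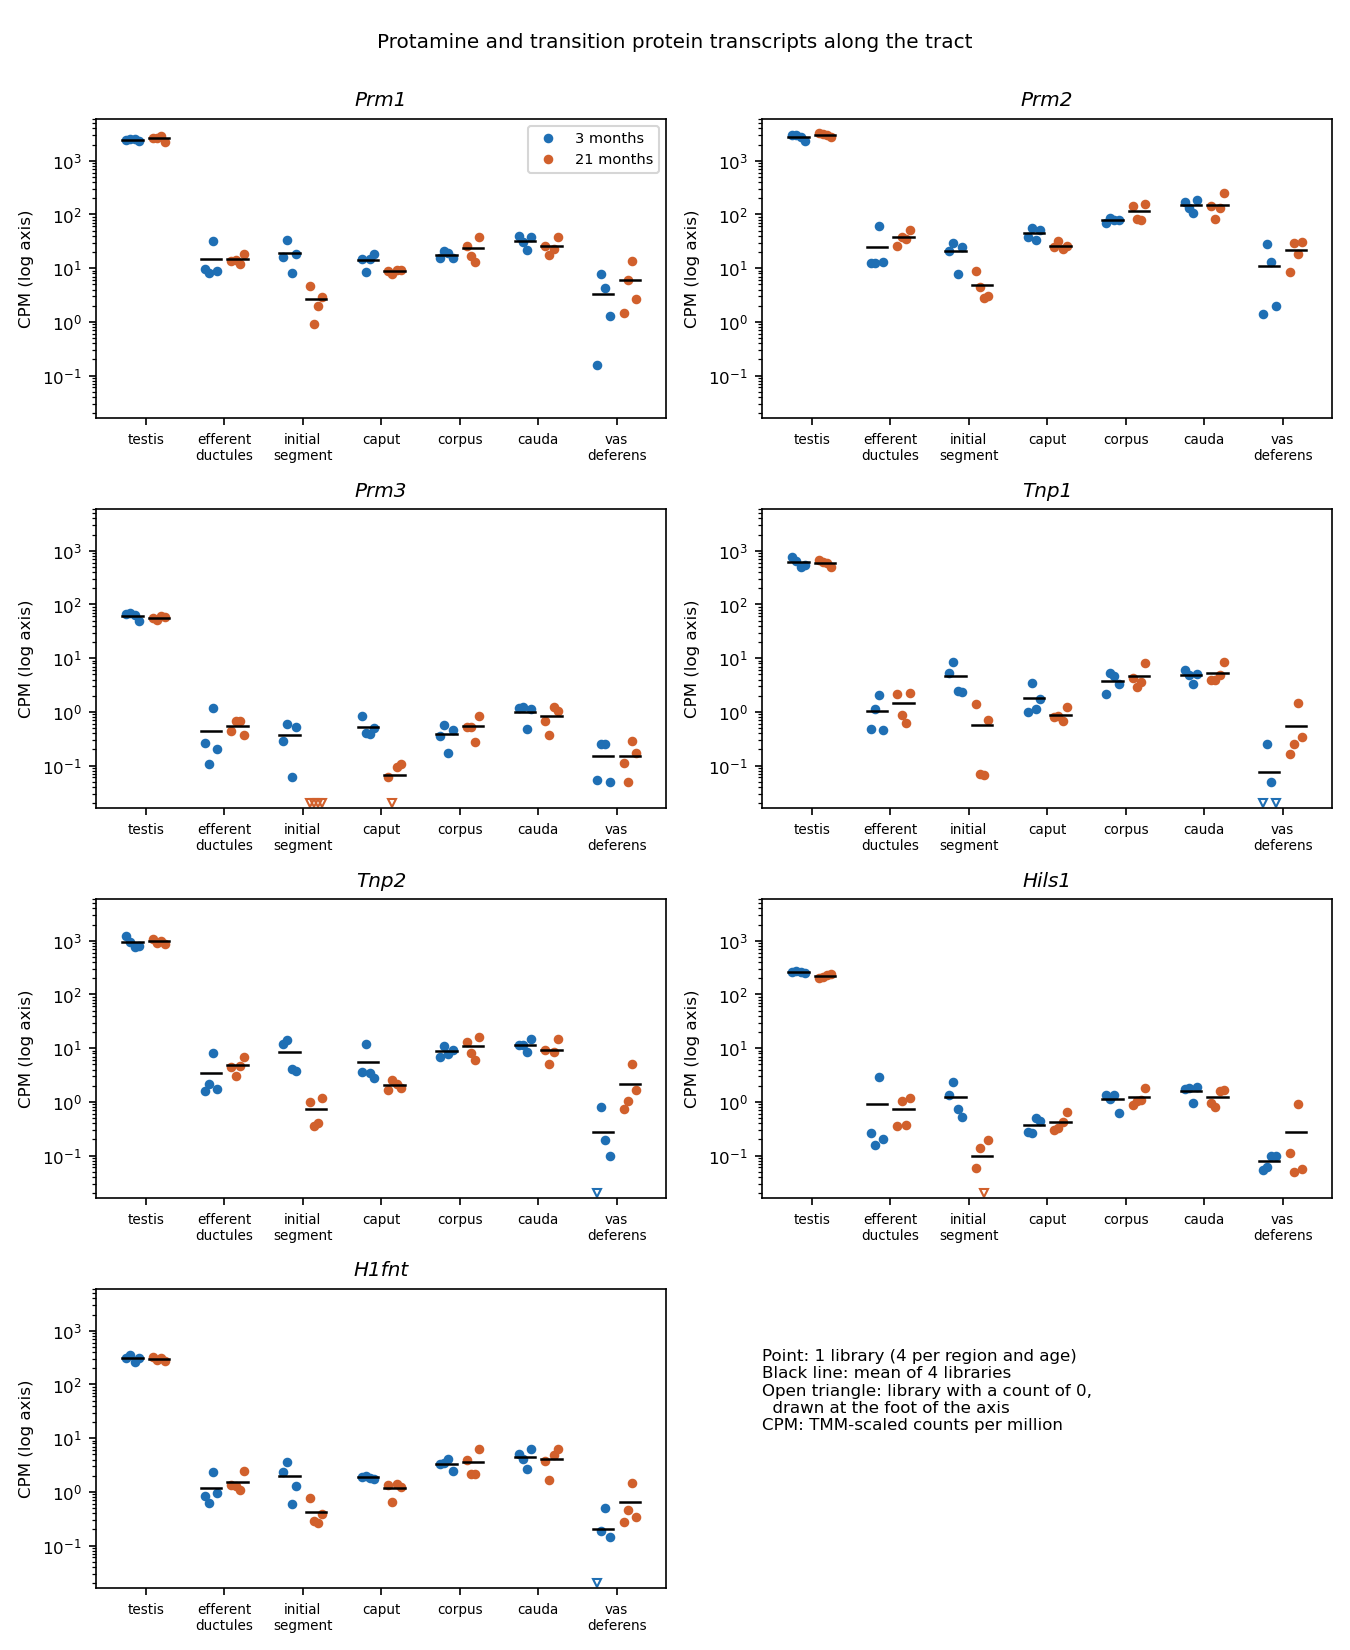
CPM of each of the 7 genes (log axis) in every library of the 7 regions, at 3 months (blue) and 21 months (orange), with black lines for the means of 4 libraries and open triangles for libraries with a count of 0. The testis lies far above every duct region for each gene, and in the initial segment the 21-month mean lies below the 3-month mean for each gene.

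In the ducts the same transcripts were a trace, 0.000207 to 0.0291% of the counts of a library for the 7 genes together. At 3 months all 7 genes were higher in the testis than in each of the 6 duct regions, past an adjusted p of 0.05 and 4-fold, by edgeR's test over 34475 genes. The share of all genes past both limits was 29, 30.8, 29.5, 30.9, 30.3 and 31.4%, in order along the tract. The gap was smallest for Prm2 in the cauda, with a log2 difference of 4.21, and largest for Tnp1 in the vas deferens, with 12.87 and 5 counts in 4 libraries. Duct means ran from 0.0121% of the testis mean (Tnp1 in the vas deferens) to 5.33% (Prm2 in the cauda) at 3 months. At 21 months all 7 genes again passed both limits against the 6 duct regions, beside 28.9, 29.9, 30.2, 30.2, 30.2 and 29.8% of all genes. Without the third efferent ductule library, a choice made after seeing the data, the differences from that region were 7.77 (Prm2) to 10.24 (Hils1), against 6.84 to 9.22 with it. The median over all genes lay 0.06 to 0.23 above 0 in these contrasts at 3 months and 0.04 to 0.17 above 0 at 21 months, far below the values of the 7 genes. In whole tissue, fewer sperm or germ cells and less RNA in each of them cannot be told apart.

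In the cauda, where sperm are stored, Prm2 stood at 172, 135, 104 and 182 CPM at 3 months and at 145, 82.1, 129.9 and 248 CPM at 21 months. Prm1 stood there at 39.0, 31.2, 21.5 and 37.5 CPM at 3 months and at 25.5, 17.2, 22.7 and 37.9 CPM at 21 months. Per kilobase of exon the 3-month means were 166 ± 40 CPM per kb for Prm2 and 56.6 ± 13.9 for Prm1 (SD, n = 4), with Prm2 above Prm1, the reverse of their order in the testis. Prm2 took 72.7 ± 1.05% of the counts of the 7 genes in the cauda and 37.4 ± 1.41% in the testis, while Prm1 took 15.8 ± 0.80% and 33.3 ± 2.70% (SD, n = 4, 3 months). The other 5 genes lay below 15 CPM in every cauda library, from 0.367 CPM in 1 library for Prm3 to 14.9 CPM for Tnp2.

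From one region to the next at 3 months, most calls lay at the ends of the tract. All 7 genes fell from the testis to the efferent ductules (log2 from -9.22 for Tnp1 to -6.84 for Prm2), where 40.8% of all genes fell. All 7 fell again from the cauda to the vas deferens, from -5.87 for Tnp1 to -2.56 for Prm3, where 21.3% of all genes fell. Between these ends few steps were called. Tnp1 rose from the efferent ductules to the initial segment (2.25 ± 0.42 SE, adjusted p = 4.0e-05), as did Tnp2 (1.38 ± 0.45, adjusted p = 0.0137), with 19.7% of all genes rising. Tnp1 then fell into the caput (-1.42, adjusted p = 0.00858, 12.8% of all genes) and rose into the corpus (1.15, adjusted p = 0.0346, 15.9% of all genes). No gene of the 7 was called between corpus and cauda by edgeR, where 24.4% of all genes were, and Prm3 alone had an unadjusted p under 0.05 (adjusted p = 0.0577). When the regions were ordered by mean CPM for each gene, 12 of the 42 pairs of neighbours differed at 3 months, 7 of them the testis and the region below it, and 4 the vas deferens and the region above it, against 23.1% of such pairs over all genes. Without the libraries of replicate 3 it was 20 of the 42. At 21 months 15 of 42 differed (21.4% over all genes).

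At 21 months all 7 again fell from the testis to the efferent ductules (40% of all genes), and more steps between the ends were called. From the efferent ductules to the initial segment 6 of the 7 genes fell (23.5% of all genes), all but Tnp1 (-1.13 ± 0.60, adjusted p = 0.136). Prm1, Prm2 and Tnp2 rose from there into the caput (1.64, 2.36 and 1.35, 14.9% of all genes), and all 7 genes rose from caput to corpus, by 1.38 for Prm1 to 2.84 for Prm3 (16.9% of all genes). No step was called between corpus and cauda, adjusted or not (26.9% of all genes), and all 7 fell from the cauda to the vas deferens (18.5% of all genes). At both ages the regions came from the same mice. At 3 months a fit with the replicate number as a block left all 7 genes above the 4-fold limit in every duct region. No such fit of the regions was run at 21 months.

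The initial segment, the first part of the epididymis, had the most age calls among the 7 genes, 7 against at most 3 in any other region. Prm1 stood at 15.9, 33.3, 8.18 and 18.0 CPM at 3 months and at 4.70, 0.917, 1.94 and 2.90 CPM at 21 months. Prm2 stood at 21.3, 28.8, 7.64 and 24.4 CPM at 3 months and at 8.98, 4.44, 2.74 and 3.09 CPM at 21 months. The ages did not overlap for Prm1, and for Prm2 the highest old library lay above the lowest young one. Tnp1 stood at 5.36, 8.55, 2.41 and 2.32 CPM at 3 months and at 1.41, 0.0705, 0.0668 and 0.709 CPM at 21 months. Tnp2 stood at 11.7, 14.1, 4.15 and 3.74 CPM at 3 months and at 0.998, 0.353, 0.401 and 1.16 CPM at 21 months. Neither transition protein had a 21-month library in the range of the 3-month libraries. Hils1 had 19, 39, 12 and 8 counts at 3 months and 1, 2, 0 and 3 counts at 21 months, and H1fnt had 33, 59, 10 and 20 counts against 13, 4, 4 and 6. Prm3 had 4, 10, 1 and 8 counts at 3 months and none in any library at 21 months, which makes it at least 6.78-fold lower against a floor of 3 counts over the group. The ages overlapped for H1fnt and not for Hils1 or Prm3. Over all genes tested there, 18.5% did not overlap between the ages and 14.6% lay lower at 21 months without overlap.

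All 7 genes fell with age in the initial segment, where 3.01% of the 24944 genes tested fell and 6.36% were called in either direction. The log2 difference was -2.68 ± 0.40 for Prm1 (SE, adjusted p = 0.00148), -1.94 ± 0.37 for Prm2 (0.00697), -2.82 ± 0.60 for Tnp1 (0.0114), -3.34 ± 0.47 for Tnp2 (0.00099), -3.41 ± 0.67 for Hils1 (0.00742) and -1.998 ± 0.51 for H1fnt (0.0310), by edgeR's quasi-likelihood test. Prm3 was called at an adjusted p of 0.0326. The median over the 7 genes, with Prm3 at its bound, was -2.76 and that of all genes -0.01. Prm1, Prm2, Tnp2 and Hils1 kept their call when any 1 of the 8 libraries was left out. The second 3-month library held the highest value of all 7 genes, and without it 4 of the 7 were called, with adjusted p of 0.0904 for Prm3, 0.0528 for Tnp1 and 0.120 for H1fnt. Prm3 also lost its call without the first or the fourth library at 3 months or the second, the third or the fourth at 21 months (adjusted p from 0.0582 to 0.0725), and H1fnt without the first at 3 months or any of those 3 at 21 months (0.0782 to 0.0935).

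Part of the other germ cell genes were called lower there as well, and none of their lists had a gene called higher. Of 20 genes of elongating spermatids and sperm, 15 fell, with a median log2 difference of -1.96. Among them were Capza3, an actin capping protein of sperm (-4.46), Actl7a, an actin-like protein of the sperm head (-2.80), and Ldhc (-2.68). Of 15 spermatid chromatin genes 5 fell (median over the list -0.17), led by Hist1h2ba, a testis variant of histone H2B (-3.56), Hist1h1t, the linker histone of spermatocytes (-2.94), and Chd5, a remodeller needed for histone removal (-1.51). Of 15 genes of spermatid transcription and mRNA storage 5 fell (median -0.13), among them Tdrd6, of the chromatoid body (-2.37), Ddx25, an RNA helicase that serves stored mRNAs (-2.25), and Sox30, a transcription factor of round spermatids (-1.67). Round spermatid genes gave 2 falls of 12 (Tssk2, a kinase of spermatids, at -2.34, and Sun5, listed with no count at 21 months), with a median of -1.71 with genes at their bound. Spermatocyte genes gave 4 falls of 16 tested (median -0.86), among them Syce1 (-2.78) and Sycp2 (-2.33) of the synaptonemal complex and Piwil1 (-2.48), which acts with piRNAs. Spermatogonium genes gave 3 of 7 tested, Dazl (-3.29), Ddx4 (-2.76) and Dmrtb1 (-2.10). In the list of Sertoli cell genes 1 of 7 tested fell, Amhr2, the receptor of anti-Mullerian hormone (-3.46), and none of 8 Leydig cell genes was called. Spint3, an epididymal protease inhibitor, rose by 0.72 among 9 duct marker genes tested.

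In summed CPM, the elongating spermatid and sperm genes ran from 69.7 to 169 at 3 months and from 31.0 to 59.3 at 21 months in the initial segment, and the 12 round spermatid genes from 7.88 to 18.6 and from 3.61 to 6.35. Those of spermatocytes overlapped between the ages (36.9 to 56.9 and 30.1 to 39.6), as did those of Sertoli cells (149.7 to 219 and 139 to 157), of Leydig cells (16.5 to 26.0 and 10.5 to 33.7) and of the duct markers (10823 to 14361 and 9757 to 11723). The genes of spermatid transcription and mRNA storage did not overlap (581 to 676 and 527 to 574), while those of spermatid chromatin (759 to 880 and 688 to 772) and of spermatogonia (191 to 257 and 207 to 226) did. A few abundant genes carry such sums, and the spermatogonium sum at 3 months was 19.0% of the testis mean. The median over the genes of a list, as a percentage of the testis mean, was lower at 21 months in every list named here. It went from 0.514 to 0.0826% for spermatogonia, from 0.657 to 0.226% for spermatocytes and from 1.27 to 0.490% for Sertoli cells. Of the defining genes, Fshr of Sertoli cells had no count at 3 months, Gata1 and Nr0b1 none at 21 months, and Spaca3 and Sun5 of round spermatids none at 21 months. Rad21l of spermatocytes and Nanos2 and Rhox13 of spermatogonia had none at either age, and Syce3 of spermatocytes and Stra8 and Sohlh2 of spermatogonia none at 21 months. The number of sperm in the lumen of these samples and any carry-over of testis RNA were not measured, and their part in the difference was not tested.

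**Figure D2:**
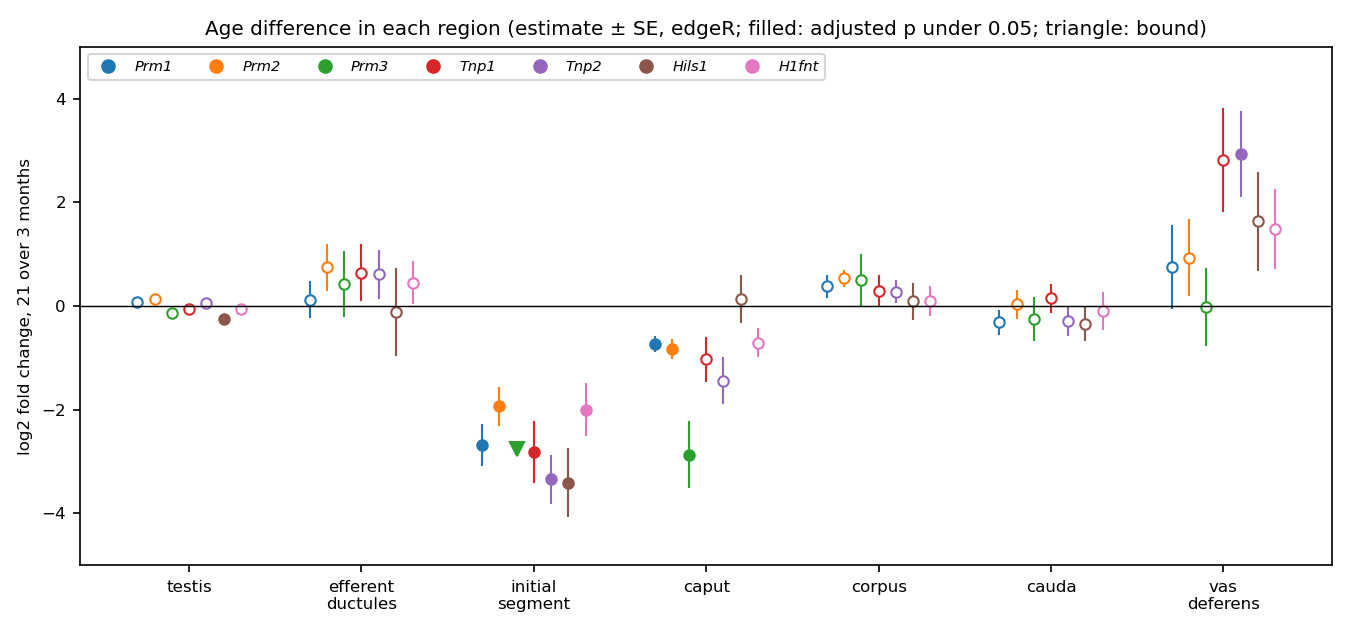
Log2 difference of 21 from 3 months for each of the 7 genes in each region, as edgeR's estimate ± SE over 4 libraries of either age, filled where the adjusted p is under 0.05, with a triangle for the bound of Prm3, which had no count at 21 months. The initial segment holds 7 filled symbols, all below 0, the caput 3, and the testis and the vas deferens 1 each.

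In the caput, the next region, Prm1, Prm2 and Prm3 fell with age and the other 4 genes were not called, against 8.14% of the 25322 genes tested called and 5.05% lower. Prm2 stood at 38.7, 55.8, 33.9 and 51.2 CPM at 3 months and at 25.0, 32.6, 22.5 and 25.5 CPM at 21 months, with no overlap (log2 difference -0.83 ± 0.19 SE, adjusted p = 0.0216). Over all genes tested there, 15.6% did not overlap between the ages and 6.93% lay lower at 21 months without overlap. Prm1 stood at 14.6, 8.43, 15.0 and 18.2 CPM at 3 months and at 8.99, 7.95, 9.17 and 9.07 CPM at 21 months (-0.73 ± 0.16, adjusted p = 0.0184), and only the second young library, the one rich in Gm42418, lay among the old ones. Prm3 had 15, 3, 7 and 8 counts at 3 months and 1, 0, 2 and 2 at 21 months (-2.87 ± 0.65, adjusted p = 0.0191). Tnp2 (-1.44 ± 0.45, adjusted p = 0.0686), Tnp1 (-1.03 ± 0.44, 0.160) and H1fnt (-0.71 ± 0.28, 0.138) missed the threshold, and Hils1 differed by 0.13 ± 0.46. Leaving out the first or the third library at 21 months ended all 3 calls (adjusted p from 0.0550 to 0.0790), leaving out the fourth at 3 months or at 21 months left only Prm3 called, and Prm1 also lost its call without the second at 21 months (0.0619). By an unadjusted p under 0.05 with 1.5-fold, 6 of the 7 were lower, all but Hils1, against 8.48% of all genes. With library size alone as the scaling, Prm3 was left and Prm1 and Prm2 had adjusted p of 0.5 and 0.515. Summed over the list, the elongating spermatid and sperm genes ran from 214 to 304 CPM at 3 months and from 197 to 215 at 21 months in the caput, where 2 of 20 fell and 1 rose, and of the round spermatid genes 2 of 12 rose and none fell. The Sertoli cell genes summed to 86.7 to 102 CPM at 3 months and 57.9 to 75.2 CPM at 21 months, with no overlap, and 2 of 8 tested fell. These sums were 22.8 and 15.5% of the testis mean, while the median over the genes of the list was 2.92 and 0.911%. Fshr of that list had no count in the caput at either age. The genes of spermatid transcription and mRNA storage ran from 483 to 505 CPM and from 405 to 435 CPM, and 4 of 14 tested fell. Of the chromatin genes 1 of 14 tested fell, as did 1 of 10 duct markers, and no gene of spermatocytes, spermatogonia or Leydig cells was called. Whether the caput samples held such cells, and their part in the difference of the protamines, was not tested.

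In the efferent ductules, corpus and cauda none of the 7 genes was called for age by edgeR at an adjusted p of 0.05, where 6.99, 2.97 and 0.128% of all genes were, and only Prm2 in the corpus had an unadjusted p under 0.05. Prm2 in the corpus stood at 68.6, 85.9, 78.0 and 80.2 CPM at 3 months and at 142, 83.1, 79.3 and 157 CPM at 21 months (log2 difference 0.53 ± 0.16 SE, adjusted p = 0.0838), with overlap between the ages. DESeq2, another tool for counts, called it (3.75% of all genes higher), as did edgeR with no filter (2.21%) or with the replicate number as a block (2.42%). The first and the fourth old library, the highest in Prm2, also held 695 and 793 CPM of the elongating spermatid and sperm genes against 465 and 462 in the other two and 458 to 597 at 3 months, and 22.8 and 29.5 CPM of the round spermatid genes against 15.4 and 12.9. No gene of either list was called in the corpus, and the part of such cells or of sperm in the difference was not tested. In the cauda the log2 differences ran from -0.35 for Hils1 to 0.15 for Tnp1, and in the corpus from 0.09 to 0.53. In the efferent ductules Prm2 stood at 12.7, 12.7, 61.1 and 12.8 CPM at 3 months and at 25.5, 38.3, 34.6 and 52.3 CPM at 21 months (0.75 ± 0.45, adjusted p = 0.335). The third young library alone lay above the old ones. No germ cell list had a gene called for age in the efferent ductules, apart from Hspa2 (0.53) among the 15 chromatin genes. Of the duct markers Lcn8 (0.0877 to 401 CPM in the old libraries) and Adam28 were called higher and Lrp2 lower (-0.45). Without the third young library, which held the highest young value of all 7 genes, Prm2 alone was called higher at 21 months, as were 0.921% of all genes. Without the 2 old libraries that stood apart, none was called, against 28% of all genes, and the differences of Prm1 and Tnp1 were -0.06 and -0.36 where they had been 0.12 and 0.64. Without all 3 of these libraries, Prm2 (1.49 ± 0.10, adjusted p = 2.6e-07), Prm3 (1.75 ± 0.61, 0.0445), Tnp2 (1.03 ± 0.27, 0.0112) and Prm1 (0.53 ± 0.14, 0.0106) were called higher at 21 months, from 3 young and 2 old libraries and beside 15.3% of all genes. Both choices of libraries were made after seeing the data.

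In the vas deferens the 7 genes varied widely between libraries, and all but Prm1 and Prm2 rested on few counts. Tnp2 had 0, 13, 4 and 2 counts at 3 months and 13, 21, 92 and 29 counts at 21 months, where the first old and the second young library had the same count. It rose by 2.93 ± 0.83 on the log2 scale (SE, adjusted p = 0.0310), in a region where 19.9% of the 25216 genes tested were called and 11.4% rose. Tnp1 had 0, 4, 1 and 0 counts at 3 months and 3, 5, 26 and 6 at 21 months (2.82 ± 1.01, adjusted p = 0.0729). By an unadjusted p under 0.05 with 1.5-fold both were higher (12.4% of all genes). The other 5 differences ran from -0.02 for Prm3 to 1.64 for Hils1, with adjusted p from 0.204 to 0.993. The third old library held the highest value of all 7 genes but Prm2, and without it Tnp2 had a log2 difference of 2.08 and an adjusted p of 0.0981. The call also ended without the first, the third or the fourth library at 3 months (adjusted p 0.0754, 0.0862 and 0.0932). In that library 18 spermatocyte genes summed to 46.7 CPM against 24.8 to 34.4 in the other 3 old ones, and the round spermatid sum is given above with the libraries that stood apart. Of the duct markers 4 of 9 tested rose and 2 fell, of the genes of spermatid transcription and mRNA storage 4 of 14 rose and 2 fell, and of the chromatin genes 2 of 14 rose and 1 fell. Of spermatocyte genes 1 of 15 and of Sertoli cell genes 1 of 7 rose, 1 of 6 spermatogonium genes fell, and none of 19 genes of elongating spermatids and sperm or of 9 round spermatid genes was called. Without the fourth old library, low in duct markers, Tnp2 had a log2 difference of 3.03 and an adjusted p of 0.0238. The elongating spermatid and sperm genes summed to 21.7, 183, 105 and 23.9 CPM in the young libraries and to 68.4, 193, 94.4 and 100.4 CPM in the old ones. The first and the fourth young library, with 0 and 2 counts of Tnp2, were thus also the lowest in these genes. The part of such cells or of sperm in the difference was not tested.

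The age difference in a duct region was also set against that in the testis, in 1 fit of all 56 libraries. In the initial segment it lay below that in the testis for Prm1 (log2 difference of differences -2.91 ± 0.67 SE, adjusted p = 0.0267), Prm3 (0.0375), Tnp1 (-2.91 ± 0.63, 0.0186) and Tnp2 (-3.55 ± 0.69, 0.00712), 4 of the 7, against 0.27% of 36977 genes. It was not called for Prm2 (-2.21 ± 0.70, 0.144), Hils1 (-3.33 ± 0.87, 0.0660) and H1fnt (-2.08 ± 0.60, 0.0966). In the caput only Prm3 was called (-2.72 ± 0.75, adjusted p = 0.0468, against 0.865% of genes), and in the vas deferens only Tnp2, above the testis (2.98 ± 0.85, adjusted p = 0.0499, against 1.68% of genes). In the efferent ductules, corpus and cauda none was called by edgeR (1.06, 0.046 and 0.519% of genes), nor had any of the 7 an unadjusted p under 0.05. These comparisons share the testis libraries, and the median over all genes was -0.14 for the initial segment and -0.13 for the efferent ductules. Without the libraries of replicate 2 none of the 4 calls in the initial segment was left (adjusted p 0.385, 0.272, 0.381 and 0.104), without replicate 4 Tnp2 alone was left, without replicate 1 Prm1 and Tnp1, and the calls in the caput and vas deferens each rested on 3 of the 4 replicate numbers.

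The proportions of the 7 transcripts were compared along the tract as ratios within a library. The ratio of Prm2 to Prm1 counts (0.5 added to each) was 1.27, 1.16, 1.07 and 1.02 in the 4 testis libraries at 3 months. It was 1.34, 0.865, 0.934 and 1.35 in the initial segment, which overlapped the testis, and 1.30, 1.53, 1.94 and 1.41 in the efferent ductules. The caput libraries had 2.65, 6.57, 2.26 and 2.80. For the corpus these ratios were 4.37, 4.07, 4.12 and 5.15, for the cauda 4.40, 4.31, 4.84 and 4.86, and for the vas deferens 7.57, 3.69, 2.99 and 1.53. No library of these 4 regions or of the efferent ductules came down to the testis range. The 7.57 rested on 26 counts of Prm2 and 3 of Prm1, and the 6.57 came from the caput library rich in Gm42418. At 21 months the testis had 1.17 ± 0.096 (SD, n = 4), the efferent ductules 2.57 ± 0.45, the caput 3.03 ± 0.72, the corpus 5.15 ± 0.84, and the cauda 5.67 ± 0.72. Means were 2.27 ± 1.66 for the initial segment and 5.80 ± 4.14 for the vas deferens. Old libraries of the former (1.07 to 4.70) overlapped those of the testis, and those of the latter ran from 1.39 to 11.4.

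Each of the other 6 genes was compared with Prm1 in this way, in 6 duct regions. At 3 months 17 of the 36 ratios did not overlap with the testis, against 93.7% of the ratios of all genes to Prm1 in the same regions. These 17 had p = 0.0286, the smallest an exact two-sided permutation test of 4 against 4 libraries can give, but none passed after adjustment over the 36 (adjusted p = 0.0605). With 17 ratios at that smallest value the adjustment lets none pass, so the lack of a call does not bear on the size of the differences. At 21 months 15 of 36 did not overlap (94.7% over all genes) and none passed (smallest adjusted p = 0.0686). The ratio of Tnp1 to Prm1 was 0.252 ± 0.0534 (SD, n = 4) in the testis and 0.256 ± 0.0896 in the initial segment at 3 months, 0.149 ± 0.00959 in the cauda and 0.0766 ± 0.0404 in the efferent ductules. With Prm2 as the denominator, 27 of 36 ratios did not overlap and passed the adjusted threshold at 3 months, 5 of them the same Prm2 and Prm1 ratios turned over, which now passed because more ratios shared the smallest p, and 91.1% of the ratios of all genes to Prm2 did not overlap. Between the ages, 2 of 42 ratios to Prm1 had an unadjusted p under 0.05 by the exact test, against 18.4% of the ratios of all genes, and none after adjustment (smallest adjusted p = 0.343).

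**Figure D3:**
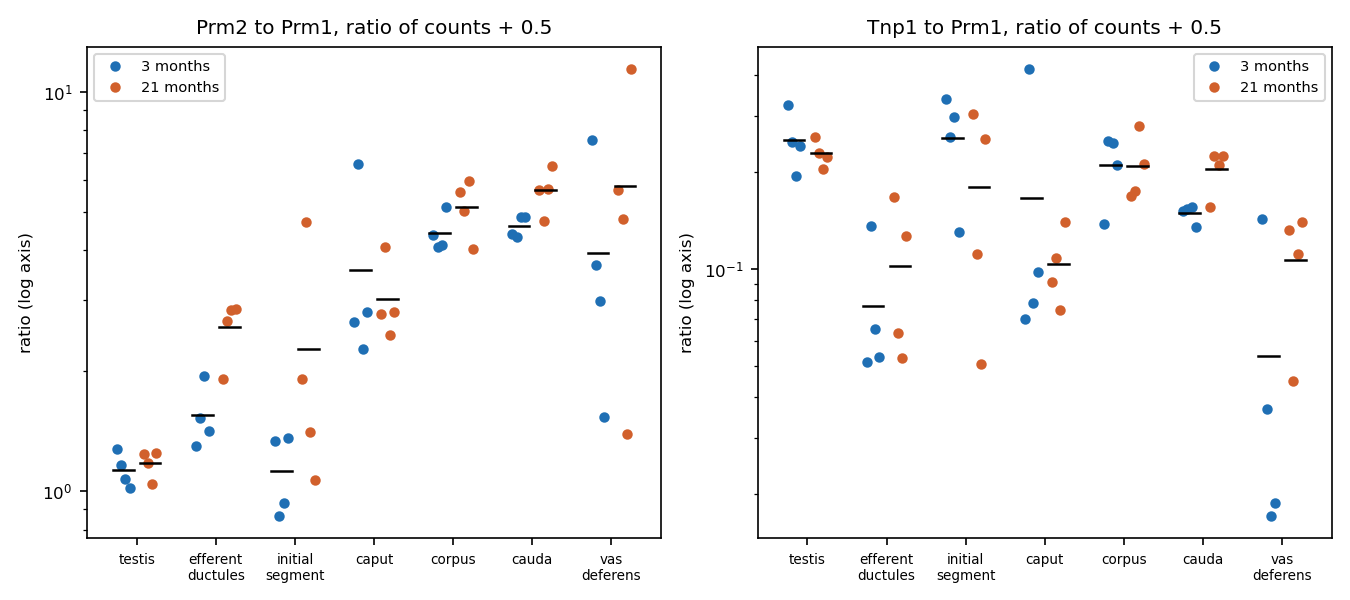
Ratio of Prm2 to Prm1 counts (left) and of Tnp1 to Prm1 counts (right), 0.5 added to each count, in every library by region and age (log axis), with black lines for means of 4 libraries. Prm2 to Prm1 lies between 1.02 and 1.27 in the young testis, between 4.07 and 5.15 in the young corpus and cauda, and between 4.03 and 6.52 in the old corpus and cauda.

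The levels of other germ cell lists in the ducts are given beside those of the 7 genes as a description, with no test. At 3 months the summed CPM of the 7 genes in the cauda was 2.74% of the testis mean, that of the elongating spermatid and sperm genes 5.46%, of the round spermatid genes 1.38% and of the spermatocyte genes 1.55%. In the initial segment the same sums were 0.753, 0.653, 0.709 and 1.62%. A few abundant genes carry such sums, and the median over the genes of a list was, in the same order, 1.31, 2.99, 0.735 and 0.861% in cauda libraries. For the initial segment these medians were 0.738, 0.511, 0.529 and 0.657%. The 15 genes of spermatid chromatin and the 15 of transcription and mRNA storage stood higher in the ducts, at 17.4 and 6.87% in the cauda (medians 11.8 and 3.97%); many of these genes are known from other cell types as well.

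**Figure D4:**
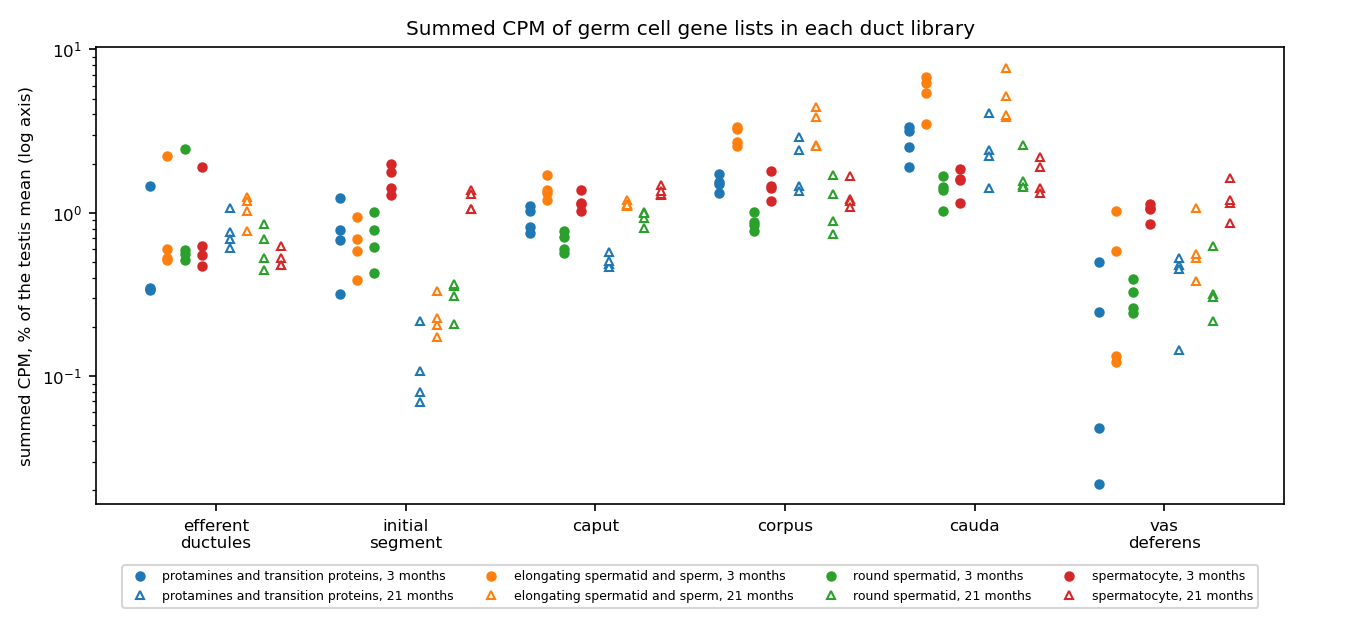
Summed CPM of the 7 genes and of 3 lists of germ cell genes in each duct library, as a percentage of the testis mean of the same age (log axis), with filled circles for 3 months and open triangles for 21 months. In the initial segment the mean of the 7 genes is 0.753% at 3 months and 0.118% at 21 months, with no overlap between the ages, and the third efferent ductule library at 3 months stands above the other 3 in all 4 lists.

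The transcripts most like 4 of the genes were sought among 10476 genes with at least 10 CPM in the young testis, by Pearson's r of log2(CPM + 0.5) over the 12 duct means (6 regions at 2 ages). These points share mice and whatever sperm or germ cells the samples held, so r is a description. Prm2 was most like Spem2 (r = 0.992), Dnajb8 (0.988) and Fam71f2 (0.988). Prm1 was most like Gm39566 (0.976), Sppl2c (0.975) and Spata21 (0.971), Tnp1 was most like Tex37 (0.971), Hspa1l (0.955) and Fabp9 (0.951), and Tnp2 like Hspa1l (0.976), Gm39566 (0.959) and Fam166a (0.956). Within the set, Prm1 and Tnp2 had r = 0.962, Tnp1 and Tnp2 had 0.958, and Prm2 had 0.895 with Prm1 and 0.806 with Tnp1.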

How the data were processed

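RNA-seq of 56 libraries (4 per region and age) was analysed. The values are whole-number read counts per Ensembl gene, deposited by the authors without normalization. Per the labels and the methods, stranded libraries of total RNA were read from both ends and the reads were trimmed with cutadapt, aligned with HISAT2 to GRCm38 (mm10) and counted with HTSeq. Versions, strand setting and annotation release are not given in the sources used here. The labels name TRIzol for the extraction and the methods an RNeasy kit. Positions and symbols came from GENCODE M21 (53274 of 53379 genes). The 7 genes and the 9 other gene lists were chosen with earlier results of these data known. Named list genes are those called in the testis, initial segment or efferent ductules, at most 3 per list, region and direction with the largest change. Also named are the 3 genes outside the set of 7 most like Prm1, Prm2, Tnp1 and Tnp2 by r.

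The quasi-likelihood test of edgeR 4.0.16 (in R 4.3.3, TMM scaling) was run on genes whose counts summed to 10 or more over the fitted libraries, for age within each region, for regions among the 28 libraries of an age, and for age by region over all libraries. Calls are at a Benjamini-Hochberg adjusted p under 0.05 over all genes tested. Intervals are at 95%. Where counts of a group were 0, folds are bounds against 3 counts. Ratios were compared by exact permutation tests over 70 splits. No library was left out. Of these tests, only that for age was checked on simulated counts, modelled on the initial segment with the same spread for all genes. The labels do not say that libraries of a group come from separate mice (the methods do), and the p-values measure only the spread between them. Alternatives were DESeq2 1.42.0, its size factors, library size only, filterByExpr, no filter, all 56 libraries in 1 fit, a replicate block, an unadjusted p under 0.05 with 1.5-fold, no Gm42418, another pseudocount (0.1 or 1) or denominator for the ratios, and fits lacking 1 library or 1 replicate number.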

Additional observations from a re-analysis of the deposited data

Results flagged for a closer look

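Within a group of 4 libraries, 1 library lay far from the others in 12 of the 98 sets of values (7 genes, 7 regions, 2 ages), by the gap to its nearest neighbour as a share of the range, with 0.829 as the limit. The limit is set so that chance alone gives about 1 in 20 for independent values, while these genes share their libraries, and over all genes tested 7.65% of such sets passed it. The third efferent ductule library at 3 months was highest for all 7 genes and passed that limit for 5, with shares of 0.936 for Prm1 (31.4 CPM against 8.28 to 9.76), 0.998 for Prm2 (61.1 against 12.7 to 12.8), 0.855 for Prm3, 0.914 for Tnp2 and 0.962 for Hils1. The third vas deferens library at 21 months was highest for all genes but Prm2 and passed the limit for Tnp1 (0.865), Hils1 (0.928) and H1fnt (0.852). Single cases were Tnp2 in the second caput library at 3 months (0.922, 12 CPM against 2.83 to 3.55), H1fnt in the fourth efferent ductule library at 21 months (0.844, 2.46 against 1.10 to 1.32), and the lowest values of Prm1 in the second caput library at 21 months (0.850, 7.95 against 8.99 to 9.17) and of Prm3 in the third cauda library at 3 months (0.919, 0.477 against 1.15 to 1.21).

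The age difference of a duct region differed from that of the testis in 6 of 42 tests, 4 of 7 genes in the initial segment (0.27% of all genes), 1 in the caput (0.865%) and 1 in the vas deferens (1.68%). None of the 4 was left without the libraries of replicate 2. In the initial segment the log2 difference of differences was -2.91 for Prm1, -2.91 for Tnp1, -3.55 for Tnp2 and -5.49 for Prm3, whose value was fitted against a group with no count and is no bound. It was -2.72 for Prm3 in the caput and 2.98 for Tnp2 in the vas deferens.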

How the results depend on the processing

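No age difference called with all libraries changed direction under any alternative run. All 7 genes stayed higher in the testis than in each duct region in all of them. In the testis the count of genes lower at 21 months went from 1 to 0 with an unadjusted p and 1.5-fold, DESeq2 size factors, filterByExpr, no Gm42418 and all 56 libraries in 1 fit, and was 0 to 1 with a library left out. In the efferent ductules 4 genes were higher without the 3 libraries that stood apart (0 to 1 with 1 library left out). Of values not called with all libraries, Prm1 and Tnp1 turned negative without the 2 old ones (-0.06 and -0.36), and Hils1 went from -0.11 to 1.72 without all 3. In the initial segment 4 to 7 were lower with a library left out, 5 with filterByExpr, which did not test Prm3 and Hils1, and 6 with the replicate block, where Prm3 had an adjusted p of 0.0760. In the caput 6 were lower with an unadjusted p and 1.5-fold, 1 with library size only, 1 in the fit of all libraries, and 0 to 4 with a library left out. In the corpus 1 (Prm2) was higher with DESeq2, no filter or the replicate block, and 0 to 1 with a library left out. In the vas deferens 2 were higher with DESeq2 or an unadjusted p and 1.5-fold, and 0 to 2 with a library left out. Against the testis, 2 age differences stood out in the initial segment with library size only and 0 to 5 without a replicate number; in the caput 0 did with library size only or the replicate block (adjusted p = 0.0507), and 0 to 1 without a replicate number, as in the vas deferens. Of neighbouring regions, 11 to 20 pairs differed without a replicate number. With Prm2 as denominator 27 ratios passed and 27 did not overlap; of the ratios to Prm1, 19 to 21 did not overlap without a replicate number (17 with all), and the exact permutation test of 3 against 3 libraries cannot pass the threshold. The causes were not tested.

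Same-numbered libraries deviated together little (mean r of 0.0322 at 3 months and 0.00538 at 21 months, with all correlations over 0.1 in 1 of 21 and 0 of 21 pairs of regions), so the numbers were not taken to pair the samples. The replicate block changed no call besides those given. Depth limits Prm3, Hils1, Tnp1, Tnp2 and H1fnt in the ducts, where some libraries held fewer than 10 counts, as did 1 vas deferens library for Prm1.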
